A study of Mus musculus with 10 samples.

Results

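The genes described here encode the core machinery of nuclear transcription: the subunits of RNA polymerases I, II and III (symbols beginning with Polr1, Polr2 or Polr3), the subunits of Mediator (Med followed by a digit), the TBP-associated factors (Taf followed by a digit) and the other general transcription factors (Gtf2 and Gtf3). Members were chosen by symbol alone. The symbols matched 105 of the 24411 genes in the tables: 28 Polr, 31 Med, 23 Taf and 23 Gtf genes. Of these, 98 had a mean level of at least 1 FPKM over all libraries and were tested, and 7 did not reach it. FPKM scales a gene's fragments to its transcript length and to the size of the library, so that levels of different genes can be compared per length. Polymerase subunits that carry other symbols, such as Twistnb and Znrd1, are given with the partner proteins.

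All libraries were made from mouse morulae, the compacting stage before the blastocyst. Oocytes of superovulated females were fertilized in vitro, and 3 to 6 h after insemination each zygote received an injected antisense oligonucleotide (ASO). Embryos were then cultured in KSOM medium until 72 h. In the Mettl3-ASO group (5 libraries) the oligonucleotide targeted Mettl3, the gene for the methyltransferase that adds N6-methyladenosine to RNA. In the ASO-Control group (5 libraries) it was a non-targeting one. Each library held polyadenylated RNA of 10 pooled embryos, so that single embryos and their cell types were not resolved. Replicates 3 to 5 of both groups are labelled batch 2. Replicates 1 and 2 carry no batch label and are called untagged, and the strain, ICR, is labelled for these 4 alone.

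Pol II transcribes protein-coding genes, Pol I the large ribosomal RNA precursor, and Pol III transfer RNAs and other short RNAs. At a Pol II promoter, TFIID (TBP with its TAFs), TFIIA and TFIIB place the polymerase, TFIIE and TFIIF follow, and TFIIH opens the DNA. Mediator, built of head, middle, tail and kinase modules around a scaffold subunit, connects factors bound at enhancers with that assembly. Pol I uses SL1, and Pol III uses TFIIIA, TFIIIB and TFIIIC. In mouse embryos this machinery is supplied by the egg at first and is then made from the embryo's own genome after its activation.

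The promoters of the tested members with the largest rises and falls that have an entry in the promoter table are shown, because the level of these genes differed most between the groups among such members. Each runs 5′ to 3′ on the gene's strand, from 250 bases before to 50 bases after the start site (RefSeq, GRCm38.p6). Capitals mark a match, on either strand, to one of the motifs described after them. The windows lie at chr3:108571449-108571748 on the plus strand (Taf13), chr8:72548261-72548560 on the minus strand (Med26), chr2:10048560-10048859 on the minus strand (Taf3) and chr10:84622048-84622347 on the plus strand (Polr3b).
Taf13: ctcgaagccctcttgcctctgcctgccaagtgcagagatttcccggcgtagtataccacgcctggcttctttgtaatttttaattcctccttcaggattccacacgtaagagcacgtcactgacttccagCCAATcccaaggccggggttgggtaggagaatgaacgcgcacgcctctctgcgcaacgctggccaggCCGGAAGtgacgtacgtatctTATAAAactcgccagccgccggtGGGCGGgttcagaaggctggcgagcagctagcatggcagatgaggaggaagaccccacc
Med26: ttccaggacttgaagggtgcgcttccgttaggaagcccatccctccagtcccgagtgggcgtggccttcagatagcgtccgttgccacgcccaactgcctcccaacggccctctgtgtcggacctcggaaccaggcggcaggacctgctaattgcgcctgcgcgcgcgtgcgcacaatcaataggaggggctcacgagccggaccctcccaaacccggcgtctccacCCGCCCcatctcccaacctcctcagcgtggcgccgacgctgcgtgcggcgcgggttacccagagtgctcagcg
Taf3: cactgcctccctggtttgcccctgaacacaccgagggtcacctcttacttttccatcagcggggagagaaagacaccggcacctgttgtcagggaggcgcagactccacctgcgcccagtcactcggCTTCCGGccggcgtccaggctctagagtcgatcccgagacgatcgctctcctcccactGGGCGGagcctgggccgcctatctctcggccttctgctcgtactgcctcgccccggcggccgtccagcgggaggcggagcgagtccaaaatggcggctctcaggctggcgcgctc
Polr3b: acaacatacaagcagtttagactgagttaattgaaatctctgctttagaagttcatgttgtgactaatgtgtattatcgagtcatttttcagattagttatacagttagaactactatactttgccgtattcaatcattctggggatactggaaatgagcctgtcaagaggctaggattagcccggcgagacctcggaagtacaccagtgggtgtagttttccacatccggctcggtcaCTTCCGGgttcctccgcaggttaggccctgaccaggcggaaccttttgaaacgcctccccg
The motifs searched, on both strands, were the TATA box (TATAAA), the CCAAT box (these letters), the GC box (GGGCGG) and the core bound by ETS factors (CCGGAAG), and none of these strings contains another. Taf13 held 4 of them, with the TATA box starting 32 bases before the start site, the GC box 9, the ETS core 53 and the CCAAT box 120 bases before it. Med26 held a GC box 23 bases before its start, Taf3 a GC box 65 and an ETS core 123 bases before it, and Polr3b an ETS core 11 bases before it. A promoter was listed for 91 of the 105 members. A gene counted if any of its listed promoters held the motif. The ETS core was present in 36.3% of these members, in 23.2% of the 7280 tested genes with a promoter and in 9.93% of all 27025 genes with a promoter. The GC box was present in 68.1% of members, 68.1% of tested genes and 38.2% of all genes with a promoter. The TATA box was present in 14.3%, 8.79% and 15.7%, and the CCAAT box in 34.1%, 44.0% and 41.1%. Of the 26 members that rose and have a promoter, 9 held the ETS core and 6 the TATA box, and of the 12 that fell 6 and 1 did. These are matches of letters, and binding was not measured.

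Total expected counts were 21412857 to 32327283 in the 6 libraries of batch 2 and 9905830 to 13530284 in the 4 untagged ones, and the members took up 1.14% to 1.45% of the counts in Mettl3-ASO libraries and 0.996% to 1.11% in ASO-Control libraries. Mettl3 (chromosome 14, 52294841 to 52308741, GRCm38.p6) held 0, 0, 0, 2 and 1 counts in Mettl3-ASO replicates 1 to 5, against 244, 272, 336, 446 and 383 in ASO-Control replicates 1 to 5. Of 10 markers of the preimplantation embryo, 9 were tested, and 5 fell and 2 rose in Mettl3-ASO. Krt18, Gata3, Krt8 and Cdx2, known from the trophectoderm, fell by 2.71, 2.19, 2.12 and 1.15 on the log2 scale and Pou5f1 by 0.64, while Nanog and Dppa3 rose by 1.07 and 0.62 (edgeR adjusted p of 1.1e-04 to 0.042 for the 7). Tead4 and Tfap2c, from the same list, were not called, at 0.17 and −0.16 (edgeR adjusted p = 0.27 and 0.36). The summed level of the 10 markers, almost all of it Dppa3, was 25614 to 45479 TPM in Mettl3-ASO and 17856 to 26821 TPM in ASO-Control. Without Dppa3 it was 236 to 969 TPM in Mettl3-ASO and 294.5 to 1154 TPM in ASO-Control. The part of these markers in the results on the members was not tested. The 10 markers of cumulus and granulosa cells summed to 0.05 to 0.96 TPM in Mettl3-ASO and 0.02 to 0.32 TPM in ASO-Control, with Amh, Cyp19a1, Has2 and Inhba at 0 in every library. The 6 markers of blood and immune cells summed to 30.3 to 69.4 TPM in Mettl3-ASO and 43.7 to 76.1 TPM in ASO-Control, most of it Hba-a1, and the 5 of spermatids and sperm to 0.28 to 3.28 TPM in Mettl3-ASO and 0.49 to 2.23 TPM in ASO-Control. In pooled embryos, fewer cells of a type and less RNA per cell cannot be told apart. Over all tested genes 49.4% were called at an adjusted p under 0.05, with 25.4% higher and 24% lower in Mettl3-ASO.

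Of the 98 tested members, 47 were called, of which 33 rose and 14 fell in Mettl3-ASO. The share of members called, 48.0%, is close to the 49.4% of all tested genes. By direction, 33.7% of the members rose and 14.3% fell, against 25.4% and 24% of all tested genes. The median log2 fold change was 0.14 over the members and 0.01 over all tested genes. Fold changes divide Mettl3-ASO by ASO-Control throughout and are given with ± for the standard error, and adjusted p-values come from the quasi-likelihood test of edgeR with a batch term, adjusted over all 9522 tested genes. At least 2-fold changes were called for 8 members that rose and 3 that fell, against 13.4% and 8.67% of all tested genes. By family, 9 rose and 5 fell of 27 Polr genes, 9 and 5 of 29 Med genes, 7 and 2 of 21 Taf genes, and 8 and 2 of 21 Gtf genes. The FPKM of the groups did not overlap for 30 tested members, 23 of them higher and 7 lower in Mettl3-ASO, against 25.6% of all tested genes.

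**Figure D1:**
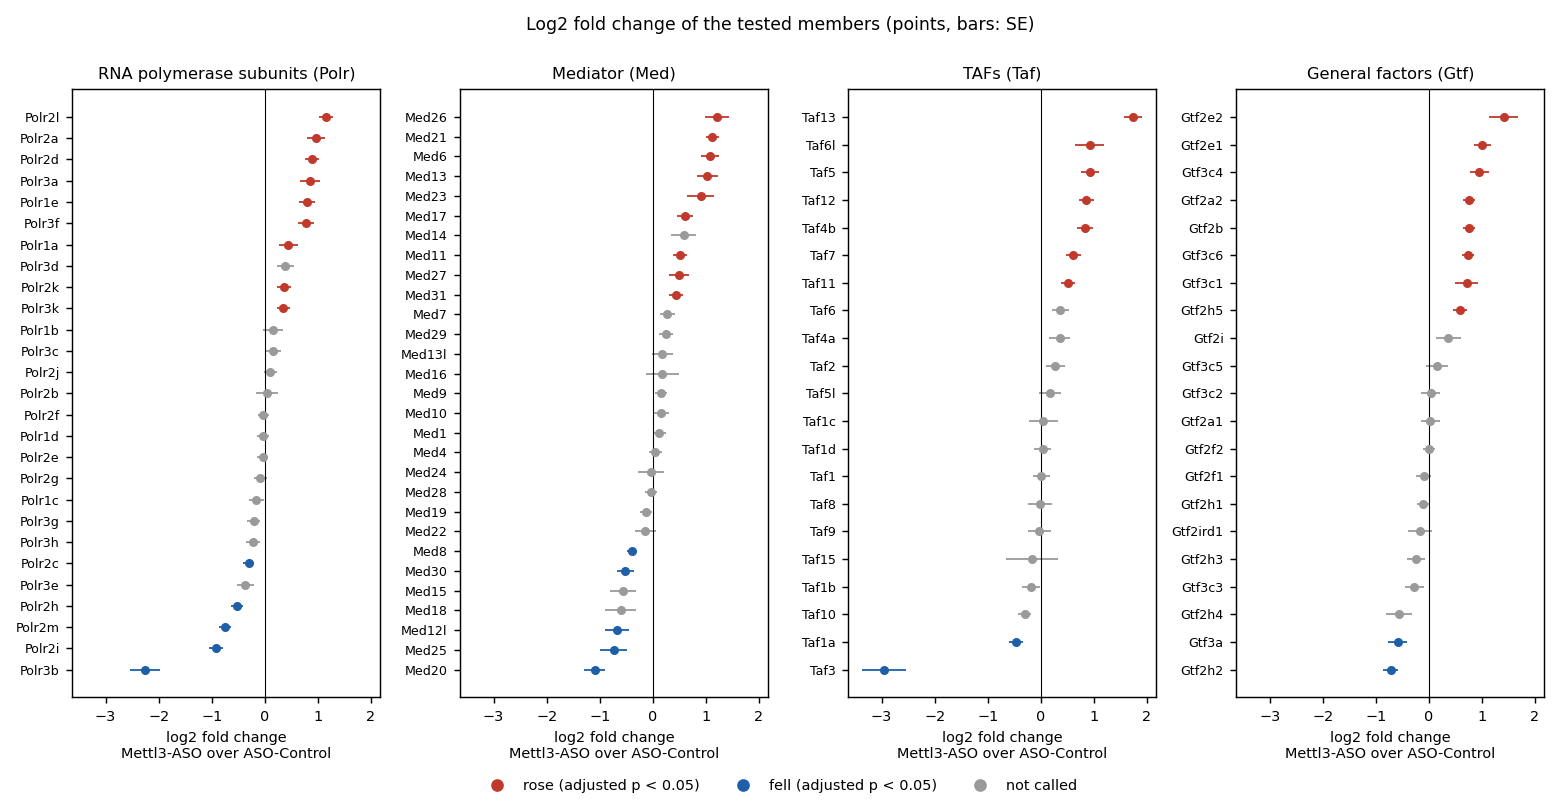
Log2 fold change of Mettl3-ASO over ASO-Control (horizontal axis) for each of the 98 tested members, in 4 panels by family; points are the estimates and bars the SE. Red marks the 33 members that rose, blue the 14 that fell and grey the 51 not called; Taf3 (−2.96) and Polr3b (−2.25) lie far left of all others and Taf13 (1.74) farthest right.

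Among the 5 subunits shared by all polymerases, 2 rose, 1 fell and 2 were not called. Of all tested genes 25.4% rose and 24% fell. Polr2l, a small subunit and part of the assembly platform of each enzyme, had 317, 318, 365, 369 and 418 FPKM in Mettl3-ASO, against 186, 135, 145, 190.2 and 127 FPKM in ASO-Control (replicates 1 to 5 in each list here and below). Every Mettl3-ASO library was above every ASO-Control library, and Polr2l rose 2.22-fold (1.15 ± 0.13, adjusted p = 2.6e-05). Polr2h, another small shared subunit, had 379, 406, 492, 466 and 546 FPKM in Mettl3-ASO, against 584, 584, 792, 623 and 639 FPKM in ASO-Control. Its groups did not overlap either, in the other direction, and it fell by 0.53 on the log2 scale (adjusted p = 0.00195). Polr2k, a zinc-binding shared subunit and the most abundant of the 5, had 1021 ± 147 FPKM in Mettl3-ASO and 784 ± 94.1 FPKM in ASO-Control (SD, n = 5 each), with a log2 fold change of 0.36 ± 0.13, adjusted p = 0.0392; its groups overlapped. The call of Polr2k was lost in 11 of 22 alternatives, among them without any 1 of ASO-Control replicates 1 to 4 or of Mettl3-ASO replicates 2, 4 and 5 (log2 fold change 0.27 to 0.43 over the 10 omissions of 1 library). Polr2e and Polr2f, the other shared subunits, were not called, at −0.04 and −0.03, and averaged 431 ± 52.7 FPKM in Mettl3-ASO and 430.3 ± 39.4 FPKM in ASO-Control for Polr2e and 765 ± 153 FPKM in Mettl3-ASO and 764 ± 143 FPKM in ASO-Control for Polr2f. Of the windows of 50 bases along the exons of Polr2l and Polr2k, 21.1% and 21.6% also occur in other genes, so that reads there could have been shared out by the counting.

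Of the 7 subunits found in Pol II alone, 2 rose and 2 fell, against 25.4% and 24% of all tested genes. Polr2a, the largest subunit, whose tail of repeats is phosphorylated during the transcription cycle, rose 1.96-fold (0.97 ± 0.17, adjusted p = 6.0e-04), with 4.32 to 11.3 FPKM in Mettl3-ASO and 2.55 to 4.78 FPKM in ASO-Control. Polr2d, which forms the stalk of the enzyme together with Polr2g, had 319, 406, 512, 418 and 539 FPKM in Mettl3-ASO, against 208, 196, 256, 251 and 246 FPKM in ASO-Control. All Mettl3-ASO values lay above all ASO-Control values, and the log2 fold change was 0.89 ± 0.13, adjusted p = 1.2e-04. Its stalk partner Polr2g was not called, at −0.08 ± 0.12. Polr2i, a subunit at the jaw of the enzyme that affects fidelity, had 116, 64.6, 108, 114 and 123 FPKM in Mettl3-ASO, against 186, 158, 196, 224 and 198 FPKM in ASO-Control. The groups were again apart, with Mettl3-ASO lower, and Mettl3-ASO replicate 2 was the lowest of all libraries; Polr2i fell 1.89-fold (−0.92 ± 0.13, adjusted p = 1.4e-04). Polr2c, which pairs with Polr2j early in assembly, fell by 0.30 (adjusted p = 0.025), while Polr2j, the most abundant of the 7 at 976 ± 128 FPKM in Mettl3-ASO and 889.9 ± 102 FPKM in ASO-Control, was not called (0.11). The call of Polr2c was lost in 9 of 22 alternatives, among them without any 1 of replicates 3 to 5 of either group (−0.37 to −0.26 over the omissions of 1 library). Polr2b, the second largest subunit, was not called either (0.03). Of the exon bases of Polr2i, 26.8% overlap Tbcb on the opposite strand, and 18.1% of those of Polr2c overlap Dok4; the strand setting of the counting was not stated. Polr2m, also named Gdown1, which binds Pol II and hinders TFIIF, had 56.6, 49.6, 25.1, 23.8 and 24.7 FPKM in Mettl3-ASO, against 75.7, 87.0, 46.6, 37.9 and 38.7 FPKM in ASO-Control. Levels were higher in replicates 1 and 2 of both groups, so the groups overlapped over all libraries, but within the untagged libraries and within batch 2 every Mettl3-ASO value was lower; Polr2m fell 1.68-fold (−0.75 ± 0.11, adjusted p = 1.9e-04).

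In Pol I, 2 of the 3 subunits under Polr1 symbols that belong to it alone rose, against 25.4% of all tested genes. Polr1e, of the dimer that helps Pol I start and elongate, had 19.2, 27.5, 24.6, 21.7 and 24.1 FPKM in Mettl3-ASO, against 14.3, 14.4, 11.7, 12.4 and 13.3 FPKM in ASO-Control. The groups did not overlap, and Polr1e rose 1.73-fold (0.79 ± 0.15, adjusted p = 9.0e-04). Polr1a, the largest subunit, had 5.41 ± 1.83 FPKM in Mettl3-ASO and 3.74 ± 0.465 FPKM in ASO-Control and a log2 fold change of 0.45 ± 0.17, adjusted p = 0.0474. That call rests on single libraries: it was lost in 13 of 21 alternatives, among them without any 1 of ASO-Control replicates 1, 2, 3 and 5 or of Mettl3-ASO replicates 1, 3 and 5, with fold changes of 0.30 to 0.51 over the omissions of 1 library. Polr1b was not called (0.16). The 2 subunits that Pol I and Pol III share, Polr1c and Polr1d, were not called, at −0.16 ± 0.14 and −0.03 ± 0.12, and had 141 ± 18.7 FPKM in Mettl3-ASO and 154 ± 12.4 FPKM in ASO-Control for Polr1c and 305 ± 18.7 FPKM in Mettl3-ASO and 316 ± 53.7 FPKM in ASO-Control for Polr1d.

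Among the 9 tested subunits of Pol III alone, 3 rose and 1 fell, against 25.4% and 24% of all tested genes. The one that fell, Polr3b, encodes the second largest subunit, which forms the active site together with Polr3a. It had 0.90, 0.61, 0.40, 1.03 and 0.71 FPKM in Mettl3-ASO, against 3.43, 4.06, 2.07, 3.16 and 4.08 FPKM in ASO-Control. The highest Mettl3-ASO value was below the lowest ASO-Control value, and Polr3b fell 4.76-fold (−2.25 ± 0.28, adjusted p = 4.5e-05); these levels rest on 28 to 124 counts in Mettl3-ASO libraries and 202 to 606 in ASO-Control libraries. On the log2(FPKM + 1) scale, which shrinks changes of low genes, the difference was −1.32 with limma. Polr3b reached the mean of 1 FPKM through its ASO-Control libraries. Its catalytic partner Polr3a went the other way, at 5.32 ± 0.959 FPKM in Mettl3-ASO and 2.85 ± 0.413 FPKM in ASO-Control (0.85 ± 0.19, adjusted p = 0.00271), and the groups did not overlap. Polr3f, of the trimer that takes part in initiation, had 14.8, 14.9, 9.71, 12.5 and 12.2 FPKM in Mettl3-ASO, against 7.68, 6.53, 6.22, 8.20 and 7.50 FPKM in ASO-Control. It was higher in every Mettl3-ASO library and rose 1.71-fold (0.77 ± 0.15, adjusted p = 0.0012), whereas the other trimer subunits, Polr3c (0.15) and Polr3g (−0.21), were not called. Polr3k, a small subunit with a part in termination and the most abundant of the 9, had 65.3 ± 8.14 FPKM in Mettl3-ASO and 49.7 ± 3.99 FPKM in ASO-Control, with no overlap, and a log2 fold change of 0.35 ± 0.12, adjusted p = 0.0285. The call of Polr3k was lost in 9 of 22 alternatives, among them without any 1 of ASO-Control replicates 2 and 4 or of Mettl3-ASO replicates 2, 3 and 4 (0.29 to 0.42 over the omissions of 1 library).

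TFIIA, TFIIB, TFIIE and TFIIF place Pol II at the start site. Of their 7 tested genes, 4 rose and none fell, against 25.4% and 24% of all tested genes. Their median log2 fold change was 0.75, against 0.01 over all tested genes. Gtf2b is TFIIB itself, which bridges TBP and the polymerase. It had 251, 277, 273, 268 and 298 FPKM in Mettl3-ASO, against 133, 151, 162, 179.8 and 167 FPKM in ASO-Control. The lowest Mettl3-ASO library was far above the highest ASO-Control library, and Gtf2b rose 1.69-fold (0.75 ± 0.11, adjusted p = 1.4e-04). Gtf2a2, the small subunit of TFIIA, had 297, 287, 379, 321 and 369 FPKM in Mettl3-ASO, against 156, 148, 216, 203 and 231 FPKM in ASO-Control. It was also without overlap and rose 1.69-fold (0.76 ± 0.11, adjusted p = 1.4e-04), while Gtf2a1, the subunit with which it pairs, was not called (0.03 ± 0.18). Both subunits of TFIIE, which recruits TFIIH, rose. Gtf2e1, the larger, had 28.1, 18.2, 24.4, 19.3 and 16.2 FPKM in Mettl3-ASO, against 11.6, 8.93, 11.6, 9.21 and 9.42 FPKM in ASO-Control, and the groups were apart. Gtf2e2, the smaller, had 199, 264, 255, 252 and 258 FPKM in Mettl3-ASO, against 77.4, 76.4, 55.3, 189 and 60.5 FPKM in ASO-Control. ASO-Control replicate 4 stood well above the other controls but still below every Mettl3-ASO library. The log2 fold changes were 1.01 ± 0.16, adjusted p = 2.7e-04, for Gtf2e1 and 1.41 ± 0.28, adjusted p = 0.00131, for Gtf2e2; without ASO-Control replicate 4 that of Gtf2e2 was 1.84. The TFIIF subunits Gtf2f1 (−0.10) and Gtf2f2 (0.01) were not called.

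Of the 5 core TFIIH subunits under Gtf2h symbols, 1 rose and 1 fell, against 25.4% and 24% of all tested genes. Gtf2h5, the smallest and the one that stabilizes the complex, had 574, 728, 882, 713 and 917 FPKM in Mettl3-ASO, against 484, 435, 572, 468 and 509 FPKM in ASO-Control. Every Mettl3-ASO library was above every ASO-Control library, by a narrow margin between Mettl3-ASO replicate 1 and ASO-Control replicate 3, and the log2 fold change was 0.59 ± 0.13, adjusted p = 0.00253. Gtf2h2, which controls the helicase of the complex, had 85.7, 100.3, 119, 124 and 109 FPKM in Mettl3-ASO, against 109.5, 145, 202, 195 and 229 FPKM in ASO-Control. Its lowest ASO-Control library lay among the Mettl3-ASO values, and it fell by 0.72 (adjusted p = 9.7e-04). The other 3 were between −0.56 (Gtf2h4) and −0.11 (Gtf2h1) and not called.

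The largest rise and the largest fall among the tested members were both in TFIID, a ranking that depends on the minimum of 1 FPKM. Taf3 reached that mean through its ASO-Control libraries. Taf9b and Taf7l stayed under it and had larger log2 fold changes, 3.43 and 3.30, in a fit without the minimum. Of 14 tested TFIID TAFs, 6 rose and 1 fell, against 25.4% and 24% of all tested genes. Their median log2 fold change was 0.36. Taf13, a histone-fold subunit that pairs with Taf11, had 297, 389.7, 433, 431 and 453 FPKM in Mettl3-ASO, against 92.5, 84.3, 98.1, 189 and 132 FPKM in ASO-Control. The groups were far apart, and Taf13 rose 3.35-fold (1.74 ± 0.17, adjusted p = 8.9e-06); its partner Taf11 rose by 0.52 (adjusted p = 0.00468). Taf3, whose zinc finger reads a methylated histone tail at active promoters, had 0.50, 0.59, 0.58, 0.08 and 0.19 FPKM in Mettl3-ASO, against 4.80, 4.20, 1.95, 1.83 and 2.34 FPKM in ASO-Control. Every Mettl3-ASO library was below every ASO-Control library, and Taf3 fell 7.77-fold (−2.96 ± 0.41, adjusted p = 9.6e-05). These values rest on 9 to 74 counts in Mettl3-ASO libraries and 228 to 346 in ASO-Control libraries, and on the log2(FPKM + 1) scale the difference was −1.49 with limma. Taf12, the histone-fold partner of Taf4 proteins, was at 319.6 ± 53.1 FPKM in Mettl3-ASO and 172 ± 24.9 FPKM in ASO-Control, without overlap (0.86 ± 0.15, adjusted p = 4.2e-04). Taf4b, a variant of Taf4a known from germ cells of the mouse, had 12.6, 11.8, 8.30, 10.9 and 11.3 FPKM in Mettl3-ASO, against 5.53, 6.25, 5.97, 5.40 and 6.43 FPKM in ASO-Control, and Taf5, a scaffold subunit, had 16.8, 18.0, 14.2, 15.9 and 15.2 FPKM in Mettl3-ASO, against 11.7, 7.62, 5.87, 9.46 and 6.84 FPKM in ASO-Control. Both were without overlap, with log2 fold changes of 0.84 ± 0.15 and 0.92 ± 0.17 (adjusted p = 5.0e-04 and 6.9e-04). Taf7 rose by 0.61 with overlapping groups. Taf1, the largest TFIID subunit, was not called, at 0.01 and 7.96 ± 1.04 FPKM in Mettl3-ASO and 7.71 ± 1.25 FPKM in ASO-Control, nor were Taf2 (0.27), Taf4a (0.35), Taf6 (0.36), Taf8 (−0.02) and Taf10 (−0.30). In 6 of 22 alternatives Taf6 was called higher. Of the exon bases of Taf6, Taf10 and Taf11, 26.5%, 45.9% and 16.2% overlap Ap4m1, Ilk and Anks1 on the opposite strand. Taf9, the most abundant, stood at 485 ± 192 FPKM in Mettl3-ASO and 482 ± 116 FPKM in ASO-Control (−0.03); 73.8% of its exon bases overlap Ak6 on the same strand.

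**Figure D2:**
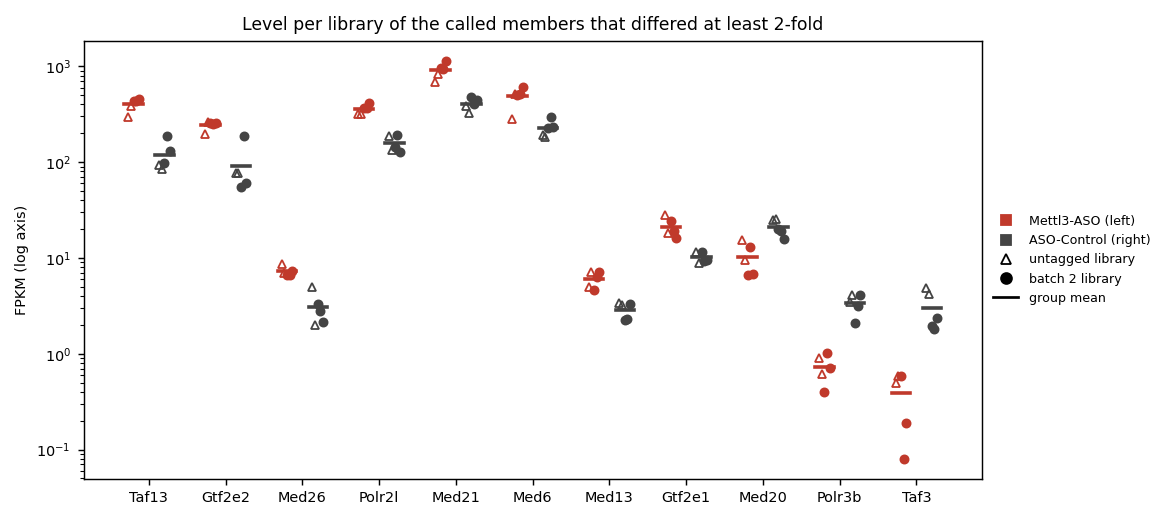
FPKM per library on a log axis for the 11 called members that changed at least 2-fold; red is Mettl3-ASO (left of each pair) and dark grey ASO-Control (right), triangles are untagged and circles batch 2 libraries, and lines are group means. Med6 is the one of the 11 whose groups overlap, and the others do not, among them Taf13 at 297 to 453 FPKM in Mettl3-ASO and 84.3 to 189 FPKM in ASO-Control, and Taf3 at 0.08 to 0.59 FPKM in Mettl3-ASO and 1.83 to 4.80 FPKM in ASO-Control.

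The SAGA-type paralogues Taf5l and Taf6l take the place of Taf5 and Taf6 in a coactivator complex that acetylates histones. Taf6l rose 1.89-fold (0.92 ± 0.27, adjusted p = 0.0132) with 6.74, 5.57, 3.60, 3.67 and 2.64 FPKM in Mettl3-ASO, against 4.49, 3.19, 0.92, 2.33 and 1.18 FPKM in ASO-Control; the groups overlapped over all libraries, and within the untagged libraries and within batch 2 every Mettl3-ASO value was higher. Taf5l was not called (0.18 ± 0.21). Of the 4 TAFs of SL1, the Pol I counterpart of TFIID, Taf1a fell by 0.48 (adjusted p = 0.00906), at 23.2 ± 4.52 FPKM in Mettl3-ASO and 31.4 ± 6.41 FPKM in ASO-Control. Taf1b, Taf1c and Taf1d were not called, at −0.19, 0.05 and 0.03. Taf15, an RNA-binding protein of the FET family, was at 1.25 ± 0.817 FPKM in Mettl3-ASO and 1.37 ± 0.491 FPKM in ASO-Control and not called (−0.17 ± 0.49). The TFII-I genes Gtf2i and Gtf2ird1, which encode DNA-binding regulators in spite of their symbols, were not called either, at 0.37 ± 0.24 and −0.16 ± 0.23.

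In TFIIIC, which binds inside transfer RNA genes, 3 of 6 subunits rose, against 25.4% of all tested genes. Gtf3c6, the smallest, had 149, 169.9, 185, 171 and 175 FPKM in Mettl3-ASO, against 95.2, 94.8, 90.7, 106 and 109 FPKM in ASO-Control. The groups were far apart, and the log2 fold change was 0.74 ± 0.12, adjusted p = 2.8e-04. Gtf3c4, which bridges to TFIIIB and Pol III, had 4.96, 5.92, 4.69, 4.90 and 7.71 FPKM in Mettl3-ASO, against 3.19, 3.27, 2.81, 2.65 and 2.37 FPKM in ASO-Control. It was likewise higher in every Mettl3-ASO library and rose 1.93-fold (0.95 ± 0.18, adjusted p = 0.00101). Gtf3c1, the largest subunit, rose by 0.71 with overlapping groups, and Gtf3c2 (0.04), Gtf3c3 (−0.27) and Gtf3c5 (0.15) were not called. Gtf3a, TFIIIA itself, fell by 0.59 (adjusted p = 0.0188); the call was lost without ASO-Control replicate 3 or Mettl3-ASO replicate 4 (−0.76 to −0.50 over the omissions of 1 library), and 59.1% of its exon bases overlap Mtif3 on the opposite strand.

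Of the 29 tested Mediator genes, 9 rose and 5 fell, against 25.4% and 24% of all tested genes. All 8 subunits of the middle module had a positive log2 fold change, from 0.05 to 1.21, as did 50.5% of all tested genes. Of these 8, 3 rose, against 25.4% of all tested genes, and 5 were not called. Med21, which pairs with Med7 in the hinge of the complex, had 689.5, 828, 955, 927 and 1146 FPKM in Mettl3-ASO, against 384, 329, 478, 406 and 445 FPKM in ASO-Control. The groups were apart, and Med21 rose 2.17-fold (1.12 ± 0.12, adjusted p = 1.9e-05). Med26, the subunit that recruits elongation factors, had 8.61, 7.01, 6.60, 6.63 and 7.33 FPKM in Mettl3-ASO, against 4.95, 2.00, 3.31, 2.80 and 2.17 FPKM in ASO-Control. Mettl3-ASO was higher throughout, and Med26 rose 2.32-fold (1.21 ± 0.23, adjusted p = 7.9e-04). Med31 rose by 0.44, a call lost without Mettl3-ASO replicate 2 or 5 (0.35 to 0.53 over the omissions of 1 library), while Med7 was at 0.28 and not called. Med10, the most abundant subunit, had 1464 ± 385 FPKM in Mettl3-ASO and 1290.0 ± 300.1 FPKM in ASO-Control and was not called (0.15). Of its exon bases, 92.8% overlap Gm26819 on the opposite strand. The share was 26.3% for Med31 (4930563E22Rik), 21.2% for Med7 (2310031A07Rik), 15.5% for Med21 (Tm7sf3) and 12.7% for Med26 (Gm17435).

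The 12 head subunits were mixed, with 4 rises and 3 falls, against 25.4% and 24% of all tested genes. Med6, a conserved head subunit near the middle module, had 283, 520.0, 497, 512 and 609 FPKM in Mettl3-ASO, against 192, 181, 227, 297 and 233 FPKM in ASO-Control. Mettl3-ASO replicate 1 lay below ASO-Control replicate 4 and the other Mettl3-ASO libraries far above all controls; Med6 rose 2.11-fold (1.08 ± 0.18, adjusted p = 3.3e-04). Med20, which forms a movable jaw with Med18, had 15.4, 9.45, 6.56, 12.9 and 6.86 FPKM in Mettl3-ASO, against 24.8, 25.3, 19.9, 19.3 and 15.8 FPKM in ASO-Control. All Mettl3-ASO libraries were lower, and Med20 fell 2.14-fold (−1.10 ± 0.20, adjusted p = 6.0e-04), while Med18 was at −0.60 and not called. Of the exon bases of Med20, 21.4% overlap genes on the opposite strand. Med17, the head scaffold, rose by 0.61 and Med11 by 0.52, both without overlap, and Med27 rose by 0.49. The call of Med27 was lost in 10 of 22 alternatives, among them without any 1 of ASO-Control replicates 1, 2, 3 and 5 or of Mettl3-ASO replicates 2, 3 and 4 (0.28 to 0.62 over the omissions of 1 library). Med8, at the base of the jaw, fell by 0.39 without overlap, and Med30 by 0.52. Med14, the backbone of the whole complex, had 6.85, 8.86, 5.31, 9.73 and 9.72 FPKM in Mettl3-ASO, against 8.32, 5.86, 3.89, 3.97 and 4.98 FPKM in ASO-Control. The groups overlapped in the untagged libraries and not in batch 2, and Med14 was not called over all libraries (0.58 ± 0.23, adjusted p = 0.0511). It was called in 10 of 22 alternatives, among them DESeq2, upper quartile scaling, batch 2 alone and the replicate number as a block (edgeR adjusted p = 0.0451).

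Among the 5 tail subunits, Med23, which binds activators, rose 1.88-fold (0.91 ± 0.25, adjusted p = 0.0101), with 3.81, 7.24, 3.54, 4.63 and 7.57 FPKM in Mettl3-ASO, against 2.98, 3.26, 2.33, 2.44 and 3.00 FPKM in ASO-Control and no overlap. Med25, another target of activators, had 2.38 ± 1.27 FPKM in Mettl3-ASO and 3.72 ± 1.03 FPKM in ASO-Control and fell by 0.74 (adjusted p = 0.0276); its call was lost in 9 of 21 alternatives, among them without any 1 of ASO-Control replicates 2, 3 and 4 or of Mettl3-ASO replicates 2, 4 and 5 (−0.93 to −0.63 over the omissions of 1 library). In the kinase module, which detaches from Mediator as Pol II binds, Med13 is the link to the rest of the complex. It had 5.01, 7.12, 4.66, 6.34 and 7.06 FPKM in Mettl3-ASO, against 3.42, 3.22, 2.23, 2.28 and 3.32 FPKM in ASO-Control. The groups did not overlap, and Med13 rose 2.04-fold (1.03 ± 0.19, adjusted p = 8.5e-04). Med12l, a relative of the kinase activator Med12, had 2.32, 2.75, 1.22, 2.63 and 2.73 FPKM in Mettl3-ASO, against 3.41, 4.43, 3.63, 2.69 and 3.86 FPKM in ASO-Control. Its 2 highest Mettl3-ASO libraries barely passed its lowest ASO-Control library, and it fell by 0.68 (adjusted p = 0.025). The call of Med12l was lost in 6 of 21 alternatives, among them without any 1 of ASO-Control replicates 2, 3 and 5 or of Mettl3-ASO replicate 1 (−0.79 to −0.52 over the omissions of 1 library), and 17.3% of its exon bases overlap Igsf10 on the opposite strand. The kinases and cyclin of the module, Cdk8 (0.07), Cdk19 (0.16) and Ccnc (−0.05), were not called; the value of Ccnc changes sign under upper quartile scaling.

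The 7 members under 1 FPKM were Gtf2a1l, Gtf2ird2, Med12, Med9os, Polr3gl, Taf7l and Taf9b. In a fit without the minimum, 3 of them were called, against 30.2% of the 19442 genes tested there. Taf9b, an X-linked paralogue of Taf9, had 0.64, 3.00, 1.73, 1.35 and 1.89 FPKM in Mettl3-ASO, against 0, 0.22, 0.41, 0.03 and 0.08 FPKM in ASO-Control (374 counts in all in Mettl3-ASO and 41 in ASO-Control). Taf7l, a paralogue of Taf7 known from mouse germ cells and fat cells, had 0.82, 1.86, 0.70, 0.81 and 1.83 FPKM in Mettl3-ASO, against 0.18, 0.05, 0.16, 0.16 and 0 FPKM in ASO-Control (187 counts in Mettl3-ASO and 22 in ASO-Control). Gtf2ird2, a TFII-I relative, had 0.50, 1.61, 0.65, 0.41 and 1.83 FPKM in Mettl3-ASO, against 0.24, 0.08, 0.10, 0.12 and 0.10 FPKM in ASO-Control (295 counts in Mettl3-ASO and 44 in ASO-Control). In each of these 3 the Mettl3-ASO libraries were all above the ASO-Control libraries, and the log2 fold changes in that fit were 3.43 ± 0.50, 3.30 ± 0.65 and 2.95 ± 0.52 (adjusted p = 1.6e-10, 4.1e-06 and 1.8e-07). Levels of Taf9b and Taf7l stayed far below those of the related genes: Taf9 had 485 ± 192 FPKM in Mettl3-ASO and 482 ± 116 FPKM in ASO-Control and Taf7 67.7 ± 13.4 FPKM in Mettl3-ASO and 43.5 ± 9.03 FPKM in ASO-Control. Gtf2ird2 was closer to its relative Gtf2i, with 0.410 to 1.83 FPKM in Mettl3-ASO and 0.0800 to 0.240 FPKM in ASO-Control, beside 0.720 to 2.85 FPKM in Mettl3-ASO and 0.810 to 1.70 FPKM in ASO-Control for Gtf2i. Med12 was at 0.642 ± 0.295 FPKM in Mettl3-ASO and 0.590 ± 0.163 FPKM in ASO-Control, and Polr3gl, Gtf2a1l and Med9os held 2 to 43 counts per group.

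Summed over the 105 members, the level was 12586, 14663, 14622, 14134 and 16066 TPM in Mettl3-ASO, against 10928, 11122, 12163, 11833 and 11838 TPM in ASO-Control. TPM sum to the same total in every library, so that this is a share of all transcripts. Every Mettl3-ASO library was higher, and the means were 14414 ± 1251 TPM in Mettl3-ASO and 11577 ± 526 TPM in ASO-Control (SD, n = 5 each), a ratio of 1.25. The TFIIA, TFIIB, TFIIE and TFIIF genes had the highest ratio among the role groups of more than 1 gene, 1.69, at 1102 ± 47.7 TPM in Mettl3-ASO and 652 ± 64.6 TPM in ASO-Control. The TFIID TAFs followed the same order, at 1733 ± 218 TPM in Mettl3-ASO and 1250.3 ± 81.6 TPM in ASO-Control, a ratio of 1.39, and so did the Mediator head at 1125 ± 103 TPM in Mettl3-ASO and 856 ± 54.1 TPM in ASO-Control. The Pol I subunits (ratio 1.52) and the genes of TFIIIA and TFIIIC (1.33) also showed no overlap. The subunits shared by all polymerases had a ratio of 1.11, those specific to Pol II 1.12 and those shared by Pol I and Pol III 0.963, and each of these overlapped. A sum is led by its abundant members. The middle module summed to 3036 ± 515 TPM in Mettl3-ASO and 2199 ± 310.5 TPM in ASO-Control. Within it, Med10 had 1464 ± 385 FPKM in Mettl3-ASO and 1290.0 ± 300.1 FPKM in ASO-Control. Med21 had 909 ± 168 FPKM in Mettl3-ASO and 409 ± 57.4 FPKM in ASO-Control, a wider gap between the groups. FPKM and TPM are different scales, so these levels are not parts of the sums.

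**Figure D3:**
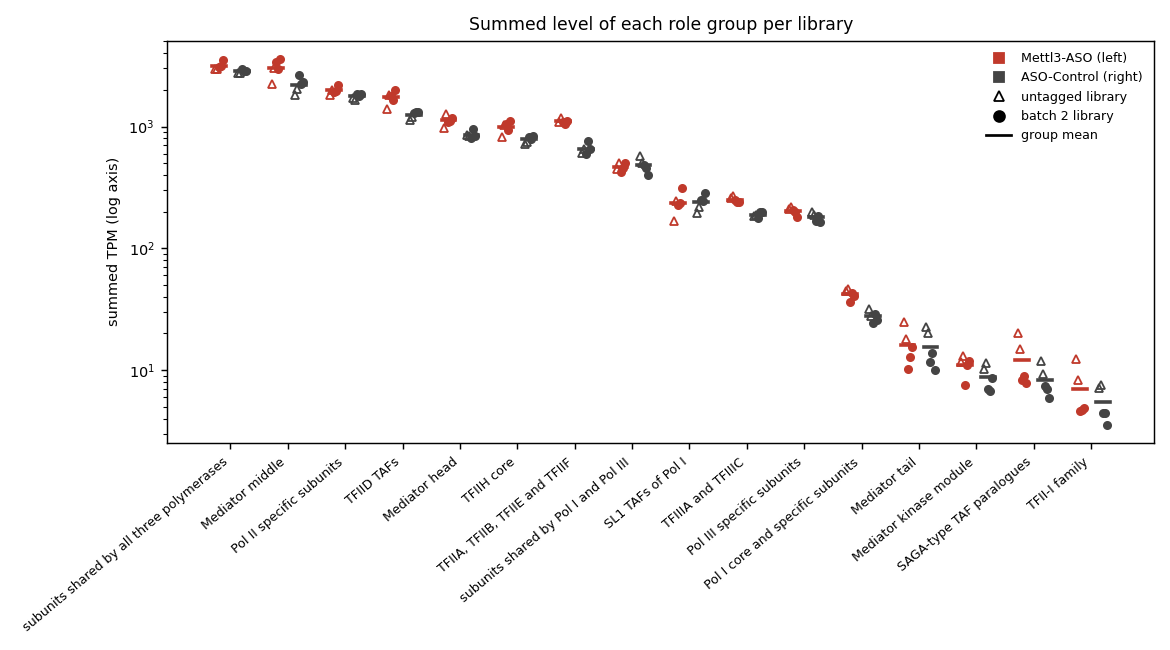
Summed TPM per library (log axis) of the members in each role group with more than 1 gene; red is Mettl3-ASO (left of each pair), dark grey ASO-Control (right), triangles are untagged and circles batch 2 libraries, and lines are means. The TFIIA, TFIIB, TFIIE and TFIIF genes sum to 1053 to 1181 TPM in Mettl3-ASO and 594 to 756 TPM in ASO-Control, while the SL1 TAFs and the Mediator tail overlap.

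Levels per length differed widely within each enzyme. In ASO-Control, Polr2a averaged 3.59 ± 0.95 FPKM and Polr1a 3.74 ± 0.47 FPKM, while the short subunits Polr2k and Polr2j averaged 784 ± 94.1 and 889.9 ± 102 FPKM. Across the 98 tested members, transcript length and mean FPKM over all libraries had a Pearson r of −0.80 on log2 scales and a Spearman rho of −0.79. FPKM divides by length, so length enters both quantities and a negative value can come from the calculation alone. The points share libraries and a full-length amplification step, and the values describe these genes only. Length and log2 fold change were nearly unrelated (r 0.006, rho 0.10). The median transcript length was 2210 bases for the members that rose, 1963 for those that fell and 2664 for those not called.

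Related genes that can take the same place in a complex were compared by their ratio in each library. The pairs were chosen with earlier results of these data known, and the adjusted p-values below do not cover that choice. For 5 pairs both genes reached 1 FPKM; the log2 ratio (0.1 FPKM added to each) was compared by a two-sided exact permutation test that relabelled libraries within the untagged and batch 2 sets, where 0.0167 is the smallest p possible, and adjusted over the 5 pairs. Taf4b over Taf4a was 1.25, 1.42, 1.79, 1.72 and 1.52 in Mettl3-ASO, against 0.42, 1.24, 1.05, 1.09 and 1.5 in ASO-Control. The difference was 0.48 (exact permutation p = 0.0167, adjusted 0.0417), with ASO-Control replicate 5 within the range of Mettl3-ASO. Med13l over Med13 was −1.04, −2.39, −1.86, −2.16 and −2.05 in Mettl3-ASO, against −0.67, −0.67, −1.07, −1.17 and −1.66 in ASO-Control. That ratio was lower by 0.85 on average (difference −0.85, exact permutation p = 0.0167, adjusted 0.0417), with Mettl3-ASO replicate 1 among the control values; Med13l alone was not called (0.18 ± 0.20). Taf5l over Taf5 differed by −0.74 (exact permutation p = 0.05, adjusted 0.0833), Taf6l over Taf6 by 0.59 (exact permutation p = 0.15, adjusted 0.167) and Gtf2ird1 over Gtf2i by −0.49 (exact permutation p = 0.167, adjusted 0.167), and these did not pass. In all 5 pairs of same-numbered libraries, Taf4b over Taf4a was higher and Med13l over Med13 lower in Mettl3-ASO. With such libraries kept together in an exact sign-flip test over the 5 pairs, p was 0.0625 for both (adjusted 0.156), which is the smallest that test can give, so that neither could pass. Leaving out 1 library gave 0.32 to 0.64 for Taf4b over Taf4a, the lowest without ASO-Control replicate 1, and −1.12 to −0.59 for Med13l over Med13. It gave −0.77 for Gtf2ird1 over Gtf2i without Mettl3-ASO replicate 3 and −0.26 without Mettl3-ASO replicate 5. With 1 FPKM added in place of 0.1, the difference of Taf6l over Taf6 was 0.35.

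**Figure D4:**
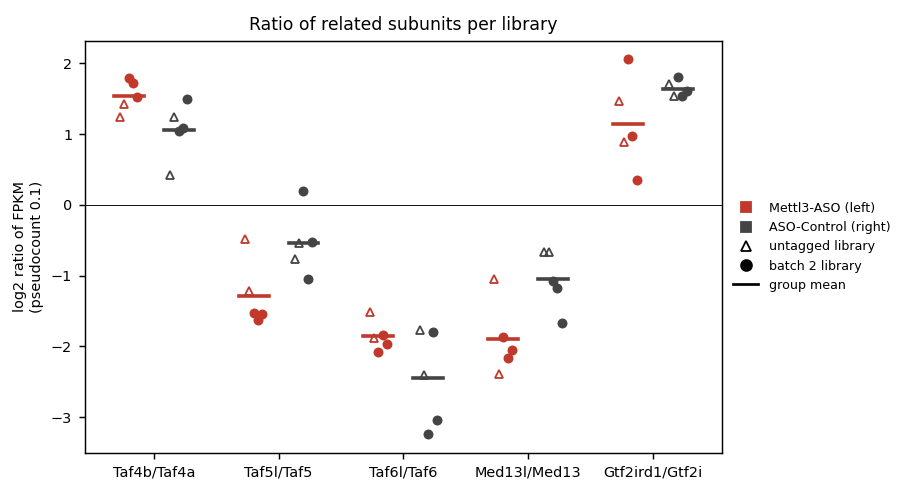
Log2 ratio of FPKM (0.1 added to each gene) per library for the 5 pairs of related genes; red is Mettl3-ASO (left of each pair), dark grey ASO-Control (right), triangles are untagged and circles batch 2 libraries, and lines are means. Taf4b over Taf4a averages 1.54 in Mettl3-ASO and 1.06 in ASO-Control, and Med13l over Med13 −1.90 in Mettl3-ASO and −1.05 in ASO-Control.

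The deposited tables list a mean transcript length per gene and library, weighted by the abundance of each annotated transcript. It varied for 27 tested members, and for 74 of the 105 members only 1 transcript is listed. A change of this length was called for 2 of the 27 with limma, against 8.27% of the 2637 genes tested. Gtf2a2 averaged 893.9 ± 1.1 bases in Mettl3-ASO and 899.3 ± 1.1 bases in ASO-Control, and the 5 Mettl3-ASO libraries lay below the 5 controls (adjusted p = 0.00315). Polr1d averaged 952 ± 20.7 bases in Mettl3-ASO and 926 ± 7.2 bases in ASO-Control (adjusted p = 0.0312). The 2 calls fell to 1 with the replicate number as a block, without the batch term, and without any 1 library other than ASO-Control replicate 4 or Mettl3-ASO replicate 5.

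The untagged and batch 2 libraries together made the 47 calls. All 47 had one sign in both sets. Because both sets were pooled to make the calls, this agreement is favoured by the selection and is no separate evidence. Of the 98 tested members, called or not, 75 had one sign in both sets, against 85.5% of all tested genes. Within batch 2 alone, 30 members were higher and 12 lower (39% of all tested genes were called there, 20.2% higher and 18.9% lower). Within the untagged libraries, with 2 libraries a group, 2 were higher and 2 lower (6.26% of all tested genes, 3.79% higher and 2.47% lower); with the replicate number as a block these became 17 higher and 6 lower, where 27.4% of all tested genes were called. Leaving out 1 untagged library moved that count in every case, in fits where the lone library of a group is assumed to vary like the other group. It was 23 higher and 5 lower without Mettl3-ASO replicate 1 (27.9% of all tested genes called) and 7 and 4 without Mettl3-ASO replicate 2 (11.2%). It was 0 and 1 without ASO-Control replicate 1 (2.57%) and 0 and 0 without ASO-Control replicate 2 (0.987%). In batch 2 the 12 lower became 7 without ASO-Control replicate 3 or 5 (29.2% and 28.5% of all tested genes called). The members called in the untagged libraries were Taf13 and Gtf2e2, which were higher there by 1.94 and 1.57, and Taf3 and Polr3b, at −3.08 and −2.37. In batch 2 the same genes stood at 1.63, 1.31, −2.86 and −2.16. No member had a called difference between the sets (edgeR, interaction of group and batch), and 1 member, Med22, had an unadjusted p under 0.05 (0.0378), against 0 called and 159 unadjusted of all 9522 tested genes; Med22 is named after its values were seen. Its log2 fold change was −0.45 in batch 2, against 0.34 among untagged libraries.

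**Figure D5:**
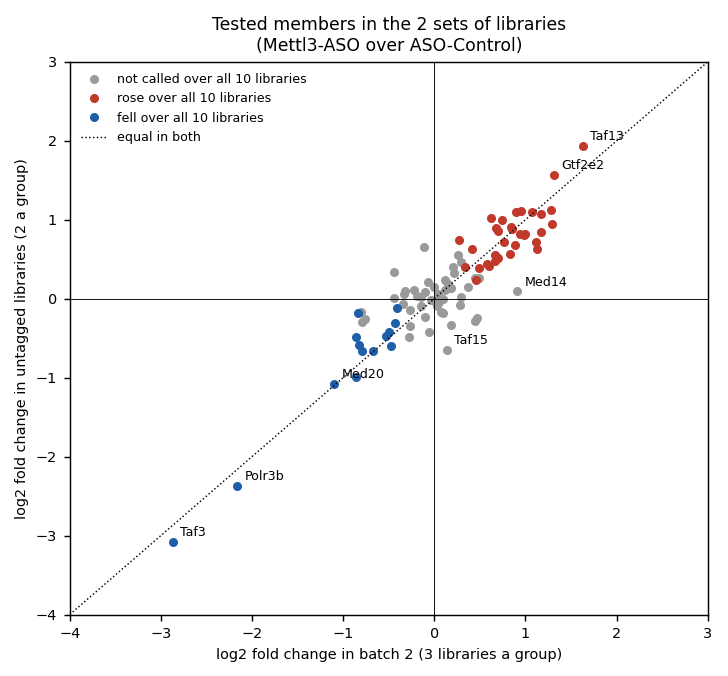
Log2 fold change of Mettl3-ASO over ASO-Control within batch 2 (horizontal axis, 3 libraries a group) and within the untagged libraries (vertical axis, 2 a group) for the 98 tested members; red rose, blue fell and grey was not called over all 10 libraries, and the dotted line marks equal values. All 33 red points lie in the upper right and all 14 blue points in the lower left, with Taf3 at −2.86 in batch 2 and −3.08 in the untagged libraries. Both sets were pooled to make these calls, which favours such agreement.

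Proteins that work with this machinery but carry other symbols were listed separately. Of 81 such genes 75 were tested, and 24 rose and 13 fell, with a median log2 fold change of 0.19; over all tested genes, 49.4% were called. Among the Pol I partners, Twistnb, a stalk subunit of Pol I, was at 84.6 ± 7.45 FPKM in Mettl3-ASO and 51.0 ± 8.65 FPKM in ASO-Control (0.70 ± 0.11, adjusted p = 2.8e-04), and Rrn3, which brings Pol I to its promoter, rose by 0.75. Znrd1, the Pol I subunit that takes part in cleavage, was not called (0.24), but was called in 5 of 22 alternatives.

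The Pol III factors held the largest rise among the partners. Snapc3, of the complex that binds promoters of small nuclear RNA genes, had 52.0, 137, 129, 117 and 145 FPKM in Mettl3-ASO, against 15.8, 13.5, 24.6, 27.1 and 20.3 FPKM in ASO-Control. It rose 5.75-fold (2.52 ± 0.25, adjusted p = 9.0e-06), with a gap between the groups. Brf2, the TFIIIB subunit used at promoters of that kind, rose 3.02-fold (1.59 ± 0.22, adjusted p = 8.1e-05). Maf1, the repressor of Pol III, had 20.9, 14.9, 9.73, 10.8 and 6.47 FPKM in Mettl3-ASO, against 38.2, 30.8, 27.7, 21.9 and 17.0 FPKM in ASO-Control. Mettl3-ASO replicate 1 overlapped the lowest control, within each set of libraries all Mettl3-ASO values were lower, and Maf1 fell 2.33-fold (−1.22 ± 0.19, adjusted p = 2.0e-04).

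Among 26 tested factors of pausing and elongation, 8 rose and 4 fell, against 25.4% and 24% of all tested genes. Hexim1, which holds the elongation kinase P-TEFb inactive, had 16.8, 9.06, 6.77, 8.54 and 8.77 FPKM in Mettl3-ASO, against 3.60, 2.36, 1.44, 1.97 and 1.61 FPKM in ASO-Control. The groups were far apart, and Hexim1 rose 4.44-fold (2.15 ± 0.20, adjusted p = 5.0e-06). Larp7, which stabilizes the small nuclear RNA of the same inactive complex, fell by 0.73 (adjusted p = 2.5e-04), and Ctr9, of the PAF elongation complex, rose by 0.88. Of the 11 tested genes for polymerase assembly and for factors of the Polr2a tail, 5 rose and 3 fell, against the same shares. Rprd1a, which binds that tail, rose by 1.41, and Rpap2 and Rpap3, needed for import and assembly of Pol II, fell by 0.79 and 0.53.

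TBP itself, to which the TAFs bind, was not called (0.25 ± 0.14), with 55.4 ± 7.54 FPKM in Mettl3-ASO and 45.6 ± 5.41 FPKM in ASO-Control. Its relative Tbpl1 fell by 0.43 (adjusted p = 0.0296), a call that was lost in 10 of 22 alternatives, among them without any 1 of ASO-Control replicates 1, 3 and 5 or of Mettl3-ASO replicates 4 and 5 (−0.54 to −0.25 over all alternatives). Of the TFIIH kinase, Mnat1 fell by 0.41 (adjusted p = 0.0214), a call lost without ASO-Control replicate 3 (−0.53 to −0.35 over the omissions of 1 library) or without Mettl3-ASO replicate 3. Cdk7 was not called (−0.38, adjusted p = 0.0672), but was called in 4 of 22 alternatives, among them the replicate number as a block (edgeR adjusted p = 0.00676). Ccnh was not called either (0.17). Among 14 tested SAGA genes 5 rose and 2 fell, against 25.4% and 24% of all tested genes. Supt7l rose by 0.85, Ccdc101, which reads histone tails, fell by 0.58, and Tada3 rose by 0.57. The call of Tada3 was lost without any 1 of ASO-Control replicate 1 or Mettl3-ASO replicates 2 and 4 (0.48 to 0.68 over the omissions of 1 library).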

How the data were processed

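RNA was measured in 10 libraries of 10 pooled morulae each, 5 injected with Mettl3-ASO and 5 with ASO-Control; sample titles gave the group and the replicate number. The authors deposited 1 table per library with expected counts (estimates of reads per gene, which need not be whole), TPM, FPKM and a mean transcript length in bases. STAR 2.7.10, RSEM 1.3.3 and the build mm10 are named, per the submitters' processing notes; options, the annotation release and strand are not given in the sources used here. RSEM shares reads that match several genes among them, so values of genes with near-identical stretches are estimates, and the deposited TPM and FPKM are relative levels within a library.

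For the 9522 genes whose FPKM averaged 1 or more, expected counts were rounded and compared by quasi-likelihood in edgeR 4.0.16 (R 4.3.3, TMM scaling, terms for batch and group). A gene was called at a Benjamini-Hochberg adjusted p under 0.05 over these genes. The same test was run within batch 2, within the untagged libraries and for the interaction. Lengths were tested on the log2 scale with limma 3.58.1. Alternatives included DESeq2 1.42.0, limma on log2(FPKM + 1), other scalings, filters and thresholds, omission of each library, and the replicate number as a block. The sign-flip test of the ratios was chosen after seeing the data. The scripts were tested on simulated data. No set test was run.

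Same-numbered libraries of the 2 groups deviated together: the correlation of their deviations from the group and batch means was 0.212, 0.212 and 0.186 for replicates 3 to 5, and 0.336 for replicates 1 and 2, which with 2 libraries a group share 1 value by construction. The numbers were therefore taken to pair the libraries in the replicate block and in the sign-flip test. The main edgeR test and the permutation test of the ratios did not keep these pairs. The pairing comes from the titles and these values, and the labels do not say what a number stands for. Separate fertilizations are not stated in the labels, and p-values reflect only how these libraries vary, possibly for technical reasons. Replicates of the same group and set differed by more than sampling noise in all cases (lowest chi-square per degree of freedom 19.6). Counts carry no molecular identifiers, and depth limits the precision of members with few counts.

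The members, the lists by role, the partners and the pairs were chosen with earlier results of these data known. Values per library or means are given for the 2 members with the smallest p and the most abundant member of each role list, for called members that changed at least 2-fold, for both genes of each pair, for called length changes, and for the 3 partners with the smallest p in each partner list. Other members are named with their call and fold change, some with their mean or range; values of Polr2a, Polr2e, Polr2f, Polr3a, Taf1, Taf7, Taf12, Taf7l, Taf9b, Gtf2ird2, Med12 and Med22 were added after they were seen. Promoters came from RefSeq (GRCm38.p6), exon overlaps and shared windows of 50 bases from GENCODE M21 on GRCm38.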

Additional observations from a re-analysis of the deposited data

Results flagged for a closer look

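In 11 of the 194 groups of 5 libraries checked (5.67%), 1 library lay apart from the other 4 by Dixon's criterion, which chance alone meets in about 1 of 20 groups. Mettl3-ASO replicate 1 was the library apart in 6 of the 11. It was lower than the other Mettl3-ASO libraries for Cdk7 (12.55 FPKM, others 19.25 to 20.87) and Gtf2e2 (198.76 FPKM, others 252.37 to 264.3). It was higher than them for Ctr9 (14.89 FPKM, others 7.85 to 9.53), Hexim1 (16.8 FPKM, others 6.77 to 9.06), Med25 (4.6 FPKM, others 1.48 to 2.19) and Polr1a (8.65 FPKM, others 4.16 to 4.84). Mettl3-ASO replicate 2 was low for Polr2i (64.59 FPKM, others 107.53 to 122.87), and Mettl3-ASO replicate 3 was low for Med12l (1.22 FPKM, others 2.32 to 2.75). Among the ASO-Control libraries, replicate 4 was high for Gtf2e2 (189.44 FPKM, others 55.33 to 77.42), and replicate 3 was high for Polr2h (791.88 FPKM, others 583.71 to 638.9) and low for Taf15 (0.52 FPKM, others 1.41 to 1.74).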

How the results depend on the processing

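Over all 10 libraries, 27 to 36 members were higher and 10 to 17 lower under other scalings, tools, filters, terms and omissions of 1 library. The share of all tested genes called in these fits ran from 30.2% (no FPKM minimum) to 55.1% (replicate block). At an adjusted p of 0.01, 25 were higher and 9 lower, and 17 and 6 in batch 2. The share of all tested genes at that threshold is not given here. The replicate block gave 34 higher and 16 lower, with all 47 calls kept and 55.1% of all tested genes called. Among the named genes it added Cdk7 and Med14 and changed no other call. In batch 2 the omission of 1 library left 20 to 28 higher and 7 to 12 lower, where 28.5% to 35.8% of all tested genes were called. The untagged libraries alone gave 2 higher and 2 lower: 11 and 4 with DESeq2 (16.5% of all tested genes called), 1 lower with limma at either pseudocount (3.19% and 2.93%), 15 and 4 without the FPKM minimum (11.5%), 0 lower at a mean of at least 5 FPKM, 17 and 6 with the replicate block (27.4%), 0 and 0 at an adjusted p of 0.01, and 0 to 23 higher and 0 to 5 lower without 1 library. Called length changes numbered 1 without the batch term, 1 with the replicate block and 1 to 2 without 1 library. The cause of the other shifts was not tested. No called member, and no called partner with values in the text, changed sign. Among uncalled ones near 0, the Ccnc log2 fold change was 0.00988 with upper quartile scaling, 0.011 at 5 FPKM or more and 0.13 with limma at both pseudocounts. Polr1d was at 0.029 with that scaling and at that minimum and at 0.078 in batch 2, Taf9 at 0.026, 0.030 and 0.030, and Taf1d at −0.017 without the minimum and −0.00076 in the untagged libraries. In batch 2 Taf15 was at 0.14 and Taf5l at −0.12, and in the untagged libraries Cdk8 was at −0.062, Gtf2ird1 at 0.10, Med13l at −0.24 and Taf1b at 0.053. Without 1 library, Ccnc ran from −0.14 to 0.015, Polr1d from −0.078 to 0.052, Taf9 from −0.25 to 0.15, Taf1d from −0.094 to 0.15 and Taf15 from −0.64 to 0.046. Upper quartile scaling moved the median of all genes to 0.07. With same-numbered libraries kept together, the ratios of Taf4b over Taf4a (0.48) and Med13l over Med13 (−0.85) could not pass. Depth limits members under 5 FPKM most.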
